A study of Mus musculus with 4 samples.

Results

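The aldo-keto reductases are a superfamily of mostly monomeric enzymes that reduce aldehydes and ketones to alcohols with NADPH. The 10 genes described here belong to its AKR1 family. They are Akr1a1 (aldehyde reductase), the 4 genes Akr1b3, Akr1b7, Akr1b8 and Akr1b10 of the aldose reductase group, the 4 genes Akr1c12, Akr1c13, Akr1c14 and Akr1c18 of the hydroxysteroid dehydrogenase group, and Akr1e1. They were taken by symbol from the 39179 genes of the series, and each symbol had 1 row. The set was chosen by family name together with the measured values of Akr1b7, whose WT and KO counts were known to lie far apart. The WT and KO values of the members are therefore a description. How many of them pass the fit over all genes is printed once, beside the same share for all genes, and is not used as a test.

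RNA came from epididymal white adipose tissue, the fat depot attached to the epididymis of male mice. Of the 4 libraries, 2 were labelled WT (Nck2+/+) and 2 Nck2 KO (Nck2-/-, given as Nck2 mutant in the genotype field), all on a mixed genetic background. Nck2 encodes an adaptor that couples tyrosine-phosphorylated receptors to actin regulators. The sources used here do not give the age of the mice, the allele or whether each library came from its own animal, so the p-values below measure the spread between these libraries, which may be technical. Polyadenylated RNA was sequenced as single reads of 50 cycles. The libraries held 31831904 to 37980391 reads assigned to genes. Nck2 itself gave 1279 and 1667 normalized counts for WT against 1076 and 947 for KO (log2 fold change -0.53, SE 0.16, limma adjusted p = 0.0509), and since the altered part of the gene is not given, this total cannot check the labels. Adipocyte markers were present in every library.

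The members differ in what they act on. Akr1b3, aldose reductase, makes sorbitol from glucose as the entry step of the polyol pathway. Akr1b7 was first described as the vas deferens protein of the mouse, is induced there by androgens, reduces lipid-derived aldehydes and can act as a prostaglandin F synthase. Several AKR1C enzymes convert steroid hormones. AKR1 genes also serve in the removal of reactive aldehydes, and some of them in other tissues are targets of the stress-responsive factor NRF2.

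The positions of the genes are from GENCODE M21 on GRCm38, the build named in the submitters' processing notes. The Akr1b genes lie side by side on chromosome 6, with Akr1b3 at 34302434 to 34317478, Akr1b8 at 34354119 to 34368463, Akr1b10 at 34384218 to 34396950 and Akr1b7 at 34412334 to 34423142. The Akr1c genes and Akr1e1 form a second cluster on chromosome 13, from Akr1c14 at 4049011 to 4090688, through Akr1c18 (4132615 to 4150654), Akr1c13 (4191150 to 4205596) and Akr1c12 (4268176 to 4279433), to Akr1e1 at 4590750 to 4609174. Akr1a1 lies alone on chromosome 4 at 116636510 to 116651680. All 10 are protein-coding.

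The members resemble each other closely enough to bear on how 50-base reads are assigned. In coding sequence Akr1b7 was 89.2% identical to Akr1b10 and 84.8% to Akr1b8, and Akr1c12 was 96.2% identical to Akr1c13. The same 50 coding bases (positions 476 to 525, counted from the A of the start codon) are shown for the 4 Akr1b genes, because a read from this stretch could come from any of 3 of them. Capitals mark bases that differ from Akr1b7. Akr1b8 and Akr1b10 had 0 differences there and Akr1b3 had 9.
Akr1b7: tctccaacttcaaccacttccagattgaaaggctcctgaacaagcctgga
Akr1b8: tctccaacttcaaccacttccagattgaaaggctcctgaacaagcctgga
Akr1b10: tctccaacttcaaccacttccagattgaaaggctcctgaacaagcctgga
Akr1b3: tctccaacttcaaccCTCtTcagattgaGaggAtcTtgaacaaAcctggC

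From the second cluster the stretch shown is coding positions 34 to 83 of Akr1c12, because Akr1c12 and Akr1c13 are identical there while their counts behaved differently (below). Capitals mark differences from Akr1c12, of which Akr1c13 had 0, its neighbour Akr1c19 had 8 and Akr1c14 had 14.
Akr1c12: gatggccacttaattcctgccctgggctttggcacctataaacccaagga
Akr1c13: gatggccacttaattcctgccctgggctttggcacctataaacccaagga
Akr1c19: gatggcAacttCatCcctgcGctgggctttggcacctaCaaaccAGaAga
Akr1c14: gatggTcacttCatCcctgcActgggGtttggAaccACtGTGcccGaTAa

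Over whole transcripts, the share of 50-base windows that also occur exactly in a transcript of another gene was 86.2% for Akr1b3, 28.6% for both Akr1c12 and Akr1c13, and 15.8% for Akr1b7. It was 5.9% for Akr1c14 and 3.21% or less for the other 5. The Akr1b3 windows recur in the unfinished gene model Gm38056 (82.4% of windows) and in the processed pseudogenes Gm6644 (56.2%) and Gm6736 (48.9%). The Akr1c12 and Akr1c13 windows recur in each other. Most of the Akr1b7 share (13.3%) lies in Gm13857, a transcribed pseudogene annotated on the opposite strand within Akr1b7. Gm13857 was at 119.2 and 158.2 normalized counts in WT and at 0 in both KO libraries. The sources used here do not give the treatment of strand or of reads with several matches, and the counts of these genes carry an uncertainty that replicates do not show.

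The 250 bases before the RefSeq start (GRCm38.p6) are shown for the 3 neighbouring genes of chromosome 6 whose WT and KO levels differed in size or direction, since androgen induction of Akr1b7 is the best known regulation in the family. Capitals mark TGTTCT, the half-site bound by the androgen receptor, searched on both strands. The windows are chr6:34412112-34412361 for Akr1b7, chr6:34353896-34354145 for Akr1b8 and chr6:34383997-34384246 for Akr1b10, all on the plus strand.
Akr1b7: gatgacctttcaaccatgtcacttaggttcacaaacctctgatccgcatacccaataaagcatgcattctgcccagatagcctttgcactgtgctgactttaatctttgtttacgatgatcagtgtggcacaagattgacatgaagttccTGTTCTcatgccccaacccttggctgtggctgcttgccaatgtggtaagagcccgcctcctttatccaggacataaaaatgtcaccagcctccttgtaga
Akr1b8: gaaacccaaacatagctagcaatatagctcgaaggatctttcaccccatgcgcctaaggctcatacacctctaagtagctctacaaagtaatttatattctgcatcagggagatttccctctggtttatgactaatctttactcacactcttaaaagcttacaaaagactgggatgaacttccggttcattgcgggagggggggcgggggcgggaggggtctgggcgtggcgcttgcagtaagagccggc
Akr1b10: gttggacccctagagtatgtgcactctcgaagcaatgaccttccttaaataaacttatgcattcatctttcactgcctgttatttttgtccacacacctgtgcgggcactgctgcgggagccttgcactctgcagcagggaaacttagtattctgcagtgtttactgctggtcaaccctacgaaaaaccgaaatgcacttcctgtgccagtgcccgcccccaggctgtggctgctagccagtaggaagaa

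TGTTCT occurred once in the Akr1b7 window, starting at position -100 from the RefSeq start, and in none of the other 8 member promoters in the table. The RefSeq table held promoters for 9 of the 10 members. For Akr1b7, Akr1b8 and Akr1b10 the RefSeq start lies downstream of the GENCODE gene start given above. The ends of these windows thus lie within the GENCODE genes, and positions here count from the RefSeq start. Of 32851 promoter windows of this length, 5284 (16.1%) hold the half-site. The site of the steroidogenic factor SF-1, searched as AAGGTCA on both strands, was at -248 in Akr1b7 and at -215 in Akr1b10 among the members, against 4.08% of all windows. The core searched for NRF2, TGACNNNGC, was in none of the 9 member windows, against 10.2% of all windows. The TATA box letters TATAAA, searched on both strands, occurred in the Akr1b8 window alone among them. That match was at -159 on the minus strand, opposite to the gene, and 12.4% of all windows hold these letters. A match is a description of the letters and no evidence of binding.

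Akr1b7 reached 695535 and 1015199 normalized counts in WT replicates 1 and 2, but 337 and 221 in KO replicates 1 and 2. A normalized count is the read count of a gene divided by a size factor of the library. Both WT libraries were thus above both KO libraries by more than the spread within either group, with 855367 ± 226037 in WT and 279 ± 82.3 in KO (mean ± SD, n = 2 libraries each, as throughout). The ratio of the means was 3065, and the log2 fold change was -11.58 (SE 0.29). All fold changes subtract WT from KO after taking log2 of the normalized count plus 1, and this understates changes of low genes. In reads, Akr1b7 had 682654 and 1091148 in WT and 360 and 198 in KO. By reads it ranked 1 among all genes in each WT library, and 9863 and 10775 in the KO libraries. The authors' deposited table gave a log2 fold change of -11.46 (SE 0.27).

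The plot of levels per kb shows how far Akr1b7 stood from its relatives.

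**Figure D1:**
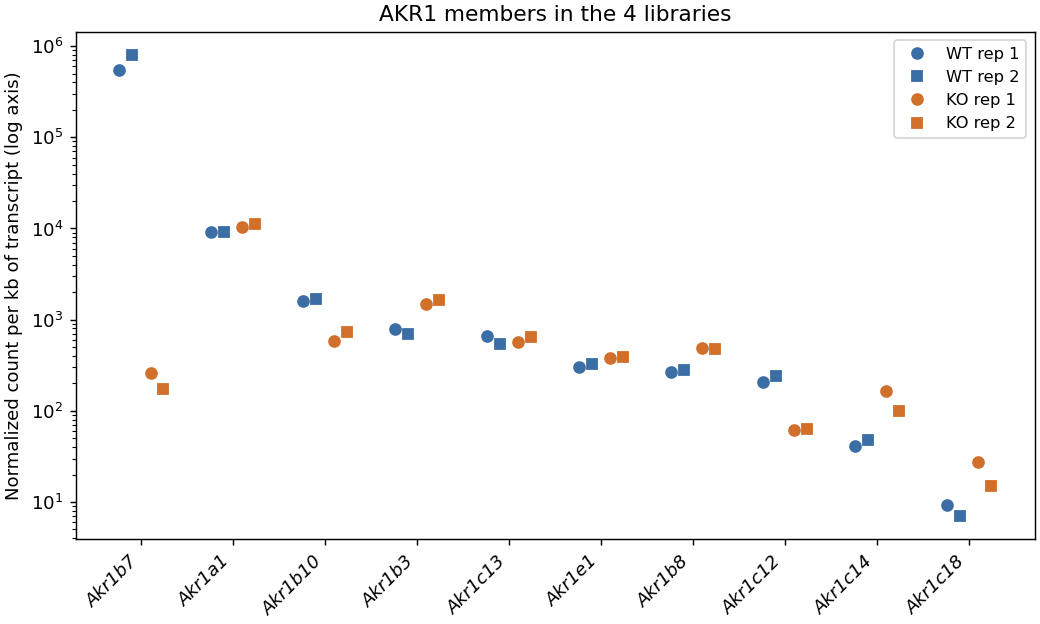
Normalized count per kb of the coding transcript (log axis) of each AKR1 member in the 2 WT (blue) and 2 KO (orange) libraries, 1 point per library, ordered by the WT mean. Akr1b7 is the highest member in WT, at 542962 and 792505 per kb, and lies among the low members in KO, at 263 and 172.

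Levels of different genes are compared per kb of the transcript that holds the longest coding sequence. In WT the order of the means was Akr1b7 (667734 per kb), Akr1a1 (9100), Akr1b10 (1642), Akr1b3 (741), Akr1c13 (604), Akr1e1 (316), Akr1b8 (276), Akr1c12 (223), Akr1c14 (44.2) and Akr1c18 (8.16). No neighbours in that order overlapped between the 2 WT libraries. In KO it was Akr1a1 (10712), Akr1b3 (1554), Akr1b10 (656), Akr1c13 (608), Akr1b8 (482), Akr1e1 (388), Akr1b7 (218), Akr1c14 (132), Akr1c12 (62.7) and Akr1c18 (21.1). There Akr1b10 and Akr1c13 overlapped, and no other neighbours did. Akr1b7 therefore went from the first place in WT to the seventh in KO.

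The other members differed far less between the groups. Akr1b3 stood at 1097 and 958 for WT and 2041 and 2271 for KO (log2 fold change 1.07, SE 0.10). Both KO libraries were higher, at 2.1 times the WT mean. The window count above applies to this gene, since most of its 50-base windows also occur in pseudogenes. Akr1b8, a reductase of lipid aldehydes first found as a gene induced by fibroblast growth factor, had counts of 365 and 384 for WT and 665 and 643 for KO (0.80, SE 0.09). Its KO libraries were both above its WT libraries. Akr1b10, the neighbour of Akr1b7 and its closest relative, gave 2197 and 2306 normalized counts for WT against 808 and 991 for KO (-1.33, SE 0.12). Akr1b10 thus shared its direction with Akr1b7 at a far smaller size, while Akr1b3 and Akr1b8 of the same cluster were higher in KO. The WT counts of Akr1b10 equalled 0.316% and 0.227% of those of Akr1b7 in the same library, and 15.7% of the 50-base windows of Akr1b7 lie within 2 mismatches of an Akr1b10 transcript. The part of misassigned Akr1b7 reads in the Akr1b10 counts was not tested.

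Among the steroid-converting members, Akr1c14, which reduces dihydrotestosterone, stood at 130 and 151 for WT and 522 and 319 for KO. Both KO libraries were higher, although they differed from each other (log2 fold change 1.53, SE 0.27). Akr1c18, which inactivates progesterone, was scarce, with 11.2 and 8.37 in WT and 32.8 and 17.9 in KO (1.24, SE 0.45). Its counts rested on 9 to 35 reads per library, so its size is poorly fixed. Akr1c12 had counts of 261 and 301 for WT and 77.8 and 80.3 for KO (-1.81, SE 0.16), a lower level in both KO libraries. Akr1c13, its near-identical relative, gave 840 and 685 normalized counts for WT against 709 and 825 for KO (0.01, SE 0.14). The WT and KO ranges of Akr1c13 overlapped, and its direction turned with the library left out (-0.13 to 0.16). Akr1c12 and Akr1c13 share 28.6% of their windows exactly, and 58.7% of Akr1c12 windows lie within 2 mismatches of Akr1c13, so their separate values depend on reads from the remaining sequence.

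Akr1a1 and Akr1e1 showed the smallest differences among the members whose groups did not overlap. Akr1a1, which also reduces glucuronate on the way to ascorbate, stood at 12927 and 12917 for WT and 14593 and 15828 for KO (log2 fold change 0.23, SE 0.08). Akr1e1, which reduces anhydrofructose, had counts of 1052 and 1139 for WT and 1328 and 1361 for KO (0.30, SE 0.07). Both KO libraries were above both WT libraries for each gene, by ratios of the means of 1.18 and 1.23. Differences this small depend on the size factors. In reads, Akr1a1 had 12688 and 13883 in WT and 15575 and 14185 in KO. For Akr1e1 the reads were 1033 and 1224 in WT and 1417 and 1220 in KO. The libraries held 31831904 and 34056187 reads in WT and 37980391 and 33880872 in KO.

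Of the 10 members, all of which passed the minimum mean of 10 normalized counts, 6 had both KO libraries above both WT libraries, 3 had both below, and 1 overlapped. Over the 16710 genes tested, 38.9% lay above and 40.6% below in this sense. In the limma fit over all genes, 4 members had an adjusted p under 0.05 and were higher (Akr1b3, Akr1b8, Akr1c14 and Akr1e1) and 3 lower (Akr1b7, Akr1b10 and Akr1c12). Over all genes 46.7% were called, 22.4% higher and 24.4% lower in KO. Since the members were chosen with this contrast known, nothing is read from these counts. Leaving out WT replicate 2 brought the members called to 0 higher and 1 lower, and leaving out WT replicate 1 brought those called higher to 1. The direction of each member other than Akr1c13 was the same in every alternative fit, TMM and upper-quartile scaling included. Scaling to total reads was not among these fits.

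**Figure D2:**
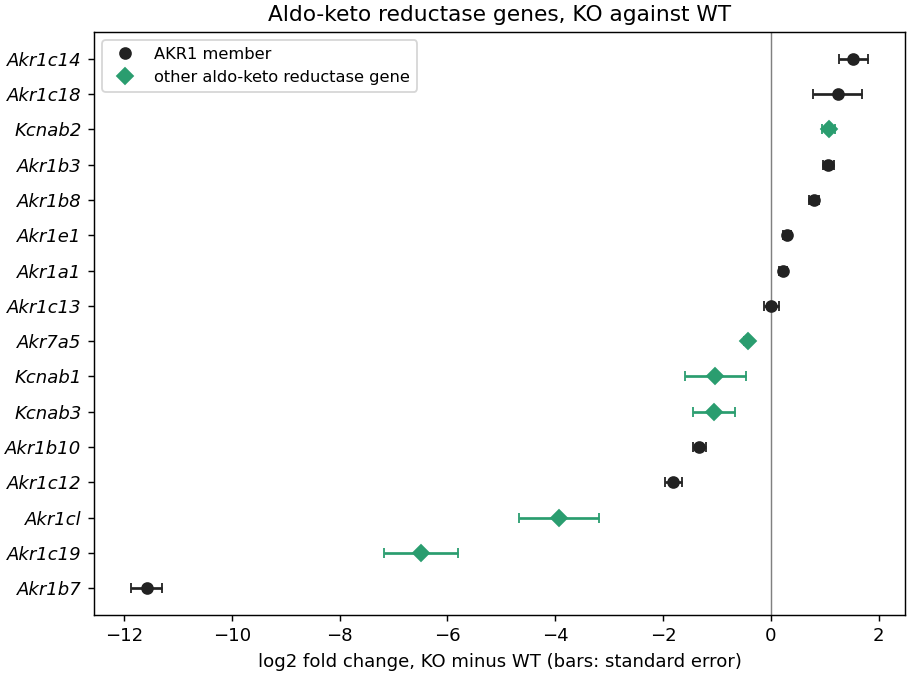
Log2 fold change, KO minus WT, with its standard error, for the 10 AKR1 members (black circles) and the 6 tested other aldo-keto reductase genes (green diamonds), ordered by value. Akr1b7 at -11.58 stands apart from the other members, which lie between -1.81 and 1.53.

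Within each library, the count of Akr1b7 exceeded that of every other member in WT and was below 7 of the other 9 in both KO libraries. It was above Akr1c12 and Akr1c18 in KO. On the log2 scale Akr1b7 was 9.31 and 10.05 above Akr1b3 in WT and stood at -2.59 and -3.36 relative to it in KO. The values for Akr1b8 were 10.89 and 11.36 in WT against -0.98 and -1.54 in KO. For Akr1b10 they were 8.31 and 8.78 against -1.26 and -2.16. These within-library ratios do not depend on the size factors. The fold change of Akr1b7 minus the median of the other 9 was -11.88, and the median of the other 9 was 0.30, beside -0.01 over all tested genes. Over the alternative fits the first of these values stayed between -12.20 and -11.56.

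Akr1b7 set the share of the family in WT. The 10 members together took 2.2% of the reads in WT replicate 1 (exact Clopper-Pearson 95% interval 2.2 to 2.21) and 3.26% in WT replicate 2 (3.26 to 3.27), while KO replicates 1 and 2 gave 0.0593% (0.0586 to 0.0601) and 0.0597% (0.0588 to 0.0605). Akr1b7 made up 97.4% (97.3 to 97.4) and 98.2% (98.2 to 98.2) of these reads in WT, and 1.6% (1.44 to 1.77) and 0.979% (0.848 to 1.12) in KO. Without Akr1b7 the other members took nearly the same share in all 4 libraries. That share was 0.0582% (0.0574 to 0.0591) and 0.0595% (0.0587 to 0.0603) in WT, and 0.0584% (0.0576 to 0.0592) and 0.0591% (0.0583 to 0.0599) in KO. The WT and KO ranges of the share without Akr1b7 overlapped. These intervals reflect counting error alone, since no molecular identifiers separate copies of 1 molecule. Akr1c19 and Akr1cl, AKR1 genes by symbol but outside the 10 members, are not in these shares. Akr1c19 had 1011 and 994 reads in WT and 22 and 4 in KO. For Akr1cl the reads were 992 and 1968 in WT and 47 and 158 in KO. The near-equal share thus holds for the chosen members only.

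The makeup of the other 9 members differed between the groups. Akr1a1 supplied 68.5% of the reads of the other 9 members in each WT library and 70.2% and 70.9% in KO. Akr1b10 went from 11.6% and 12.2% in WT to 3.89% and 4.44% in KO, and Akr1b3 from 5.81% and 5.08% to 9.82% and 10.2%. These 2 shifts have opposite signs. Akr1c14 made up 0.691% and 0.8% in WT against 2.51% and 1.43% in KO.

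**Figure D3:**
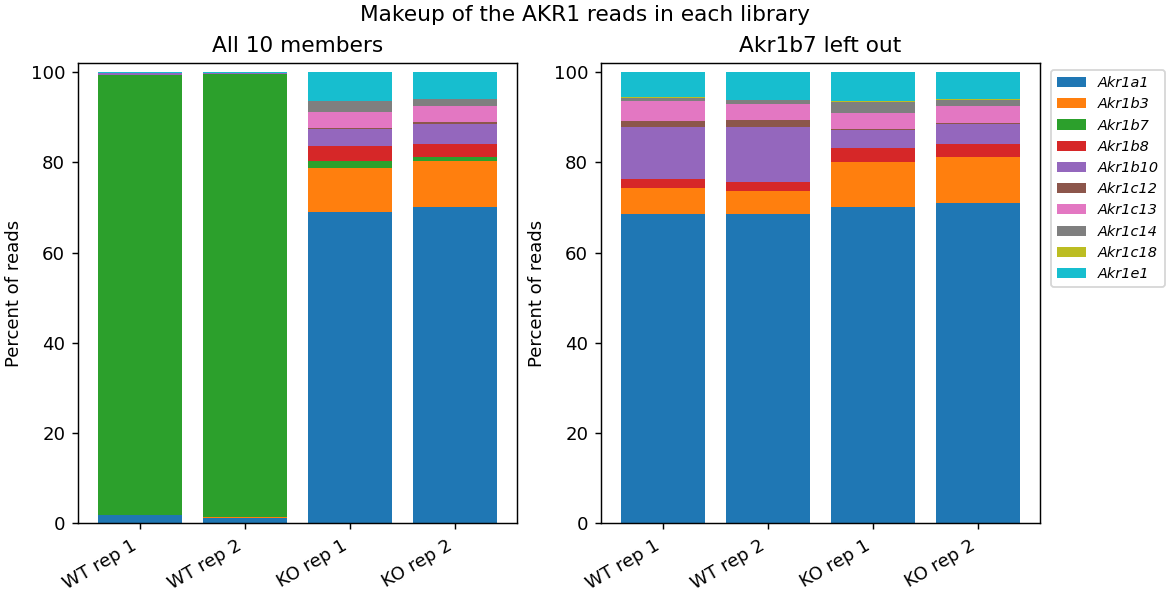
Stacked percent of the AKR1 reads by member in each of the 4 libraries, with all 10 members (left) and with Akr1b7 left out (right). Akr1b7 fills 97.4% and 98.2% of the WT bars on the left, and on the right Akr1a1 holds 68.5% to 70.9% in every library.

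The pattern of Akr1b7 was compared with that of 14022 genes of a mean of 50 or more, by the Euclidean distance between log2 values centred on each gene's own mean over the 4 libraries. The 5 nearest were Pcp4 (distance 0.42), Spink8 (0.44), Ly6f (0.46), Serpina1f (0.50) and Crisp1 (0.52). The other members were left out of this comparison, so they could not appear. None of the remaining aldo-keto reductase genes was among the 5. Spink8, a protease inhibitor of the male tract, gave 42524 and 42542 normalized counts for WT against 14.1 and 11.2 for KO. Crisp1, a sperm-binding protein of the epididymis, stood at 343811 and 334537 for WT and 108 and 93.7 for KO. With 4 libraries in 2 groups, the measure mostly reflects the size of the difference between the groups.

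Marker lists of some cell types differed in the direction of Akr1b7 and others in the opposite direction. Of 12 epididymis epithelium markers, 10 were below WT in both KO libraries. They summed to 361334 and 344260 in WT replicates 1 and 2 and to 118 and 107 in KO, where Lcn5, Lcn8, Lcn9 and Eppin had no reads. Crisp1 alone, at 343811 and 334537 in WT and 108 and 93.7 in KO, held most of these sums. Only 7 of the 12 reached the minimum mean of 10 normalized counts. All 8 smooth muscle markers were lower in KO, with sums of 429267 and 564008 in WT replicates 1 and 2 and of 14410 and 17206 in KO. The 7 seminal vesicle markers summed to 42757 in WT replicate 1 but to 138 in WT replicate 2, and to 4.68 and 3.35 in KO, where Svs1, Svs3a, Svs4, Svs6 and Pate4 had no reads. Of these 7, 5 were below WT in both KO libraries, and 1 passed the fit over all genes. Akr1b7 was higher in WT replicate 2 than in WT replicate 1, as was the smooth muscle sum. The epididymis sum, mostly Crisp1, and the seminal vesicle sum had the opposite order. The adipocyte list was higher in KO for 7 of 8 markers, with sums of 302671 to 433990 in WT and 1070827 to 1179105 in KO. Macrophage markers were higher in KO for 5 of 5, with sums of 17555 to 18610 in WT and 38427 to 41698 in KO. Over all tested genes, both KO libraries lay above both WT libraries for 38.9% and below for 40.6%.

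Akr1b7 is also a product of steroid-making cells of the adrenal cortex. The 10 markers of such cells summed to 1116 and 1124 for WT and 1596 and 1274 for KO, and 2 genes with opposite directions held most of these sums. Cyp17a1 went from 651 and 661 to 1.87 and 4.46, and Mc2r, the corticotropin receptor, which adipocytes of the mouse also express, from 338 and 244 to 1338 and 1147. Without Cyp17a1 the sums were 465 and 463 for WT and 1594 and 1270 for KO. Of the 10 markers 4 were lower and 2 higher in both KO libraries, beside 40.6% and 38.9% of all tested genes. Only 5 of the 10 reached the minimum mean of 10 normalized counts. Among the lower ones, Cyp11b2 (1.02 and 6.51 in WT) and Insl3 (4.08 and 10.2 in WT) lay near the floor. Hsd3b1, Cyp11b2 and Insl3 had no reads in KO, and Cyp11b1 had none in WT. The part of any of these cell types in the Akr1b7 difference was not tested. In bulk tissue, fewer cells of a type and less RNA per cell cannot be told apart.

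**Figure D4:**
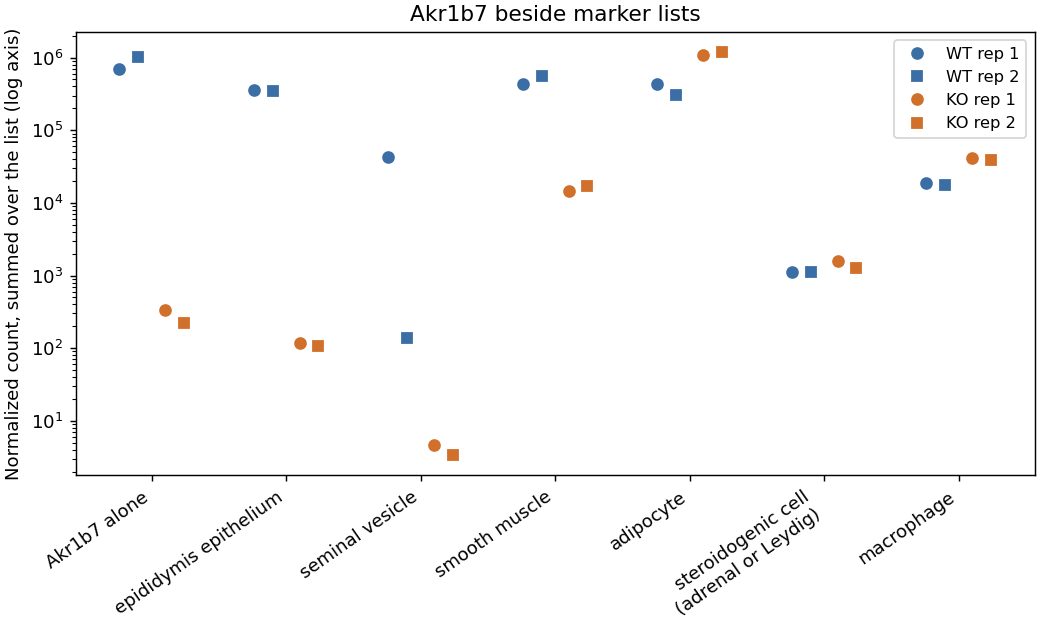
Normalized count (log axis) of Akr1b7 and summed normalized count of each marker list in the 2 WT (blue) and 2 KO (orange) libraries. Akr1b7 and the epididymis epithelium, seminal vesicle and smooth muscle lists are higher in WT, the adipocyte and macrophage lists are higher in KO, and the seminal vesicle list differs between the WT libraries (42757 and 138).

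The remaining aldo-keto reductase genes were not members, but their list was also chosen with earlier results of these data known. Only 6 of the 10 genes found reached the minimum level. Of these 3 fell and 1 rose, the remaining 2 missed the threshold, and the median was -1.04 on the log2 scale. Over all tested genes 24.4% were called lower and 22.4% higher in KO, with a median of -0.01. Akr1c19, which lies between Akr1c13 and Akr1c12 in the chromosome 13 cluster (4228700 to 4252843), had counts of 1030 and 925 for WT and 20.6 and 4.46 for KO. It fell by 6.49 on the log2 scale (SE 0.69, limma adjusted p = 0.00369). Akr1c19 and its neighbour Akr1c12 were thus both lower in KO, whereas Akr1c13, on the other side of Akr1c19, overlapped between the groups. Akr1cl (chromosome 1, 65012689 to 65032759) gave 1011 and 1831 normalized counts for WT against 44 and 176 for KO, and fell by 3.93 (SE 0.74, limma adjusted p = 0.0155).

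Akr7a5, which reduces aflatoxin dialdehyde and succinic semialdehyde, stood at 1615 and 1543 for WT and 1146 and 1191 for KO. It fell by 0.43 (SE 0.07, limma adjusted p = 0.00946). The potassium channel subunits Kcnab1, Kcnab2 and Kcnab3 carry the same fold. Kcnab2 had counts of 231 and 261 for WT and 497 and 543 for KO, and rose by 1.08 (SE 0.12, limma adjusted p = 0.00421). Kcnab1 (log2 fold change -1.03, limma adjusted p = 0.202) and Kcnab3 (-1.05, 0.0876) did not pass, and Kcnab1 passed without KO replicate 1 (-1.85, 0.00816). Akr1c6 and Akr1c20 had 1 read each, in WT replicate 1, and Akr1c21 and Akr1d1 had none. Without WT replicate 1 or without WT replicate 2 none of these genes passed, with log2 fold changes of -6.41 and -6.57 for Akr1c19 (limma adjusted p = 0.0749 and 0.0864) and of -4.36 and -3.50 for Akr1cl (0.117 and 0.169). Akr7a5 was then at -0.40 and -0.47 (0.0709 and 0.0724) and Kcnab2 at 0.99 and 1.16 (0.0577 and 0.0605).

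Prostaglandin genes were examined because Akr1b7 can make prostaglandin F. Among 24 that could be tested, 10 fell, 8 rose and 6 missed the threshold, with a median of -0.31. The shares over all tested genes were 24.4% lower and 22.4% higher. Both cyclooxygenases, which supply the substrate, fell, and the synthases went both ways. Ptgs2, the inducible cyclooxygenase, gave 87370 and 143792 normalized counts for WT against 104 and 70.3 for KO, and fell by 10.34 (SE 0.31, limma adjusted p = 0.000551). Like Akr1b7, it was higher in WT replicate 2 than in WT replicate 1. Ptgs1, the constitutive cyclooxygenase, stood at 6003 and 5629 for WT and 1233 and 880 for KO (-2.48, SE 0.18, limma adjusted p = 0.00161). Ptgds, a prostaglandin D synthase, had counts of 3039 and 4192 for WT and 16.9 and 8.93 for KO (-8.07, SE 0.35, limma adjusted p = 0.000705).

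The other synthases with a call, Ptgfr and the other receptors were named after their values were seen. So were Ptgr1, Ptgr2, Abcc4, Cbr1 and Pla2g4a. Ptges, a prostaglandin E synthase, fell by 2.48 (SE 0.19, limma adjusted p = 0.00183), from 13091 and 18787 to 2751 and 2875. Fam213b, a prostaglandin F synthase outside the aldo-keto reductases, rose by 1.67 (SE 0.27, limma adjusted p = 0.0104), from 1194 and 771 to 2615 and 3573. Its direction was thus opposite to that of Akr1b7. Cbr1, a carbonyl reductase of the same list, fell (log2 fold change -0.94), as did Pla2g4a (-2.69), in the direction of Akr1b7. Tbxas1, the thromboxane synthase, rose by 1.28 (limma adjusted p = 0.00242), and Hpgds, a second prostaglandin D synthase, by 0.88 (0.0185). Fam213b did not pass without WT replicate 1 or WT replicate 2 (limma adjusted p = 0.0557 and 0.0951), Tbxas1 without WT replicate 2 (0.0502), and Hpgds without any 1 of the 4 libraries (0.06 to 0.109).

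Genes of transport and breakdown also went both ways. The carrier Slco2a1 gave 39334 and 52398 normalized counts for WT against 1055 and 836 for KO (-5.59, SE 0.19, limma adjusted p = 0.000567). Hpgd, which inactivates prostaglandins, stood at 29339 and 40327 for WT and 3739 and 3358 for KO (-3.28, SE 0.18, limma adjusted p = 0.000984). Of the reductases that act after Hpgd, Ptgr1 fell by 3.38 (SE 0.21, limma adjusted p = 0.00131) and Ptgr2 rose by 0.91 (SE 0.12, limma adjusted p = 0.00578, or 0.0726 without WT replicate 2). The exporter Abcc4 did not pass (-0.39, limma adjusted p = 0.0671). Ptgfr, the receptor of prostaglandin F, rose, with 24.5 and 37.2 for WT and 336 and 223 for KO (3.14, SE 0.33, limma adjusted p = 0.00356). Of the list's other receptors, Ptger3 (log2 fold change 2.07), Ptger2 (1.70) and Ptgir (1.27) also rose, and Ptger1 (-2.15) fell. Ptger4 (0.56) and Tbxa2r (-0.45) did not pass. Without WT replicate 1 the list had 4 genes higher, and without WT replicate 2 it had 0. Ptgs1 and Ptgfr did not pass without either of these libraries, with limma adjusted p = 0.0501 and 0.0588 for Ptgs1 and 0.0576 and 0.0596 for Ptgfr.

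Steroid-converting enzymes were examined beside the AKR1C members. Among 17 that could be tested, 4 fell, 5 rose and 8 missed the threshold (median 0.12), beside 24.4% lower and 22.4% higher over all genes. Srd5a2, which makes dihydrotestosterone, had 395 reads in WT and 1 in KO over both libraries. Scaled by the size factors summed over each group, that is a ratio of 377, with an exact 95% interval of 67.3 to 14935 for counting error. The ratios of reads given for other genes below are scaled in the same way. Srd5a1, its relative, gave 349 and 239 normalized counts for WT against 70.3 and 58 for KO (-2.16, SE 0.25, limma adjusted p = 0.00458). Cyp17a1, an enzyme of androgen synthesis, stood at 651 and 661 for WT and 1.87 and 4.46 for KO (-7.37, SE 0.38, limma adjusted p = 0.000927). Hsd17b4, an enzyme of peroxisomal fatty acid oxidation as well as of steroids, rose by 1.49 (SE 0.14, limma adjusted p = 0.00278), from 5948 and 4735 to 14126 and 15782. Genes higher numbered 2, 1 and 2 without WT replicate 1, WT replicate 2 and KO replicate 2, and genes lower numbered 2 and 1 without the first 2 of these. Srd5a1 did not pass without WT replicate 1 or WT replicate 2 (limma adjusted p = 0.0589 and 0.056), nor did Srd5a2 without the latter (0.0506).

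Other enzymes that remove aldehydes and carbonyls went both ways, with 6 higher, 7 lower and 11 not passing of 24 (median -0.10). All tested genes had 22.4% higher and 24.4% lower. Aldh3a1, an aldehyde dehydrogenase, had 369 reads in WT and 2 in KO, a ratio of 176 (exact 95% interval 48.4 to 1460). Aldh1b1, of mitochondria, had counts of 245 and 279 for WT and 45 and 43.5 for KO (-2.54, SE 0.17, limma adjusted p = 0.0015). Adh1, an alcohol dehydrogenase, gave 5753 and 5598 normalized counts for WT against 3385 and 3603 for KO (-0.70, SE 0.07, limma adjusted p = 0.00286). Aldh3b1 rose by 1.37 (SE 0.13, limma adjusted p = 0.00286), from 199 and 207 to 483 and 571. Aldh2, which clears acetaldehyde, stood at 21834 and 17701 for WT and 26499 and 26195 for KO and did not pass (0.42, SE 0.14, limma adjusted p = 0.0645, or 0.0133 by DESeq2). Genes higher numbered 2, 1 and 3 without WT replicate 1, WT replicate 2 and KO replicate 2, and genes lower 4 and 1 without the WT libraries. Without WT replicate 2 the limma adjusted p was 0.0736 for Aldh3a1, 0.0502 for Aldh1b1, 0.0551 for Adh1 and 0.0655 for Aldh3b1. Without WT replicate 1 it was 0.0603 for Aldh3a1 and 0.0571 for Aldh3b1.

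The polyol, glucuronate and ascorbate list, which holds partners of Akr1b3 and Akr1a1, had 3 genes higher, 6 lower and 6 not passing of 15 (median -0.29). Beside it, 22.4% of all tested genes were higher and 24.4% lower. Sord, which turns the sorbitol made by Akr1b3 into fructose, had counts of 1710 and 1558 for WT and 3261 and 3499 for KO. It rose by 1.05 (SE 0.08, limma adjusted p = 0.00186), beside the value of 1.07 for Akr1b3. The fructose carrier Slc2a5 gave 181 and 161 normalized counts for WT against 4.68 and 6.69 for KO (-4.70, SE 0.30, limma adjusted p = 0.0013). Slc23a1, an ascorbate carrier of epithelia, had 883 reads in WT and 1 in KO, a ratio of 843 (exact 95% interval 151 to 33340). Rgn, the gluconolactonase of ascorbate synthesis, stood at 231 and 163 for WT and 4.68 and 0 for KO (-6.35, SE 0.91, limma adjusted p = 0.00775, or 0.102 and 0.107 without WT replicate 1 or 2). Genes lower numbered 2 without either WT library, and genes higher 1 without WT replicate 2.

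NRF2 target genes did not move in 1 direction, with 7 higher, 8 lower and 10 not passing of 25 (median 0.21, or 0.06 without WT replicate 2). Of all tested genes, 22.4% were higher and 24.4% lower. Gsta2, a glutathione transferase with close paralogs whose reads may be shared, had 938 reads in WT and 0 in KO, at least 299-fold higher in WT when the summed KO reads are set to a floor of 3. Slc7a11, the cystine carrier, had counts of 371 and 271 for WT and 20.6 and 22.3 for KO (-3.82, SE 0.24, limma adjusted p = 0.00125). Nqo1, a quinone reductase, gave 864 and 726 normalized counts for WT against 218 and 286 for KO (-1.66, SE 0.18, limma adjusted p = 0.00378, or 0.0689 and 0.0704 without WT replicate 1 or 2). Gclc, of glutathione synthesis, fell by 0.78 (SE 0.07, limma adjusted p = 0.00259), from 2667 and 2489 to 1470 and 1538. G6pdx, which supplies NADPH, rose by 1.18 (SE 0.09, limma adjusted p = 0.00195), from 5752 and 5070 to 11895 and 12592. Genes higher numbered 4, 2, 4 and 3 without WT replicates 1 and 2 and KO replicates 1 and 2, and genes lower 5 without either WT library.

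**Figure D5:**
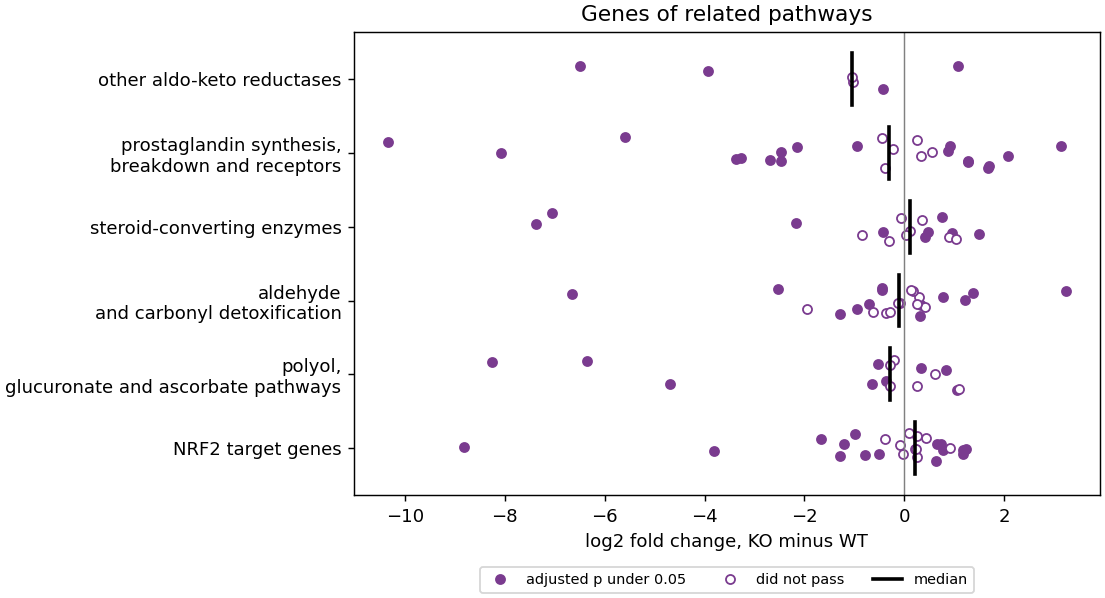
Log2 fold change, KO minus WT, of each tested gene in 6 lists of related genes, 1 point per gene (filled where the adjusted p is under 0.05), with the list's median as a bar. Each list holds genes on both sides of 0, and the lowest prostaglandin gene, Ptgs2 at -10.34, compares with -11.58 for Akr1b7.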

How the data were processed

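The files deposited by the authors hold a signal for each gene in each library (the read count over a size factor, called normalized count) and a comparison table with a log2 fold change, its SE, a score as test statistic and p-values. CASAVA 1.8 and DESeq2 1.4.5, with TopHat2 2.0.10 and HTSeq 0.5.3, are named in the submitters' processing notes, as is GRCm38. Dividing by the step of 1 read gave whole reads for 100% of values (tolerance 0.01 reads, or a millionth of larger values). The replicates differed beyond sampling noise (chi-square per degree of freedom 49 between WT and 34.7 between KO libraries). Totals were 31831904 and 34056187 reads in WT and 37980391 and 33880872 in KO.

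Genes with a mean of 10 or more (16710) entered a fit by limma 3.58.1 (R 4.3.3) of log2 values with a pseudocount of 1, a mean-dependent prior variance and Benjamini-Hochberg adjustment over all genes at 0.05. The members, lists and tests were chosen with earlier results of these data known. Named were all members, the other aldo-keto reductases, up to 4 passing genes of each other list by smallest p, 6 genes by name (Sord, Hpgd, Ptgs1, Ptgs2, Nqo1 and Aldh2) and the 5 genes nearest to Akr1b7. Lists overlap, as with Cbr1, Cbr3, Gsta4, Abcc4, Dcxr and Cyp17a1, and members were kept out of them. Other settings tried were a pseudocount of 0.5 or 5, a minimum mean of 50 or none, TMM and upper-quartile scaling, edgeR 4.0.16 and DESeq2 1.42.0 on recovered reads, a replicate block, and each library left out. Positions and transcripts came from GENCODE M21, which held 37607 of the gene IDs (96%), promoters from RefSeq, and coding identities from global alignment with Biopython 1.88.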

Additional observations from a re-analysis of the deposited data

How the results depend on the processing

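The log2 fold change of Akr1b7 lay between -11.89 and -11.28 over 13 alternatives, and its difference from the median of the other members between -12.20 and -11.56. With a library left out, the lone sample of that group takes its spread from the other group, and residual degrees of freedom are fewer. Over these 4 fits, genes called numbered 524 to 2846 higher and 1061 to 3434 lower, against 3735 and 4074 with all libraries, and members called 0 to 3 higher and 1 to 3 lower. The ranges of genes higher and lower were 0 to 1 and 0 to 4 for the other aldo-keto reductases, 0 to 7 and 7 to 10 for prostaglandin genes, 1 to 5 and 1 to 4 for steroid-converting enzymes, 1 to 5 and 1 to 7 for aldehyde and carbonyl genes, 1 to 4 and 2 to 5 for the polyol list, and 2 to 4 and 5 to 8 for NRF2 targets. No named gene reversed direction after passing. On recovered reads, edgeR had 3610 genes higher and 3966 lower and DESeq2 had 3617 and 3892.

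The replicate numbers only name the libraries: same-numbered deviations had a correlation of -0.009 over 16710 genes. With the replicate block 2737 genes were higher and 3339 lower, and genes higher numbered 3 of the steroid-converting enzymes, 3 of the aldehyde and carbonyl genes and 4 of the NRF2 targets. It moved no other list count by over 1.5 times. The AKR1 share of reads in KO was 0.0708% when the 20 most abundant genes other than members were left out of the total, against 0.0595%, and in WT it was 3.1% against 2.73%. With no filter the median of the steroid-converting list was -0.19. Depth limits Akr1c18 most, with 9 to 35 reads per library.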
